A study of Mus musculus with 12 samples.

Results

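A group of 6 genes for secreted matrix proteins and matrix-crosslinking enzymes were followed in macrophages of mouse bone marrow: Fn1, Thbs1, Tgfbi, Vcan, F13a1 and Tgm2. They were chosen by symbol, with earlier results of these data known. All 6 were matched among the 23420 gene rows of the count table, and all 6 passed the filter on low counts. Fn1, Thbs1, Tgfbi and Vcan encode fibronectin, thrombospondin, the TGF-beta-induced adhesion protein and the proteoglycan versican. F13a1 and Tgm2 encode the catalytic subunit of coagulation factor XIII and tissue transglutaminase.

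The cells came from marrow of mice on a C57BL/6 background and were sorted as macrophages, without the sort markers being given in the sources used here. Each of 2 mice, numbered 7 and 19, gave a tibia treated with mesenchymal stromal cells (MSCs, the fibroblast-like supporting cells of marrow) and an untreated femur, and 3 RNA-seq libraries were made from each bone. In the labels the tibia cells are MSC-educated macrophages. The title refers to leukaemic marrow, while age, disease state and the dose and timing of the MSCs are not stated for the samples. Only tibias were treated and only femurs were left untreated, so treatment and bone cannot be told apart. Nothing says that the 3 libraries of a bone came from separate sorts, so the spread between libraries may be technical. P-values within a mouse, between the femurs and for the difference between the mice measure this spread. Those over both mice also take in how far the change differed between the 2 animals. The tests over both mice were repeated on counts summed per animal and bone.

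Macrophages and monocytes make several proteins of the provisional matrix that is laid down where tissue is injured or remodelled. Fibronectin forms fibrils that cells grip through integrins, thrombospondin binds cell-surface receptors and can activate latent TGF-beta, and versican binds hyaluronan in large aggregates. Transglutaminases join glutamine and lysine side chains of neighbouring proteins, which hardens fibrin and links fibronectin into insoluble matrix. F13a1, Fn1 and Vcan are also widely used as genes of classical monocytes.

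Total counts ran from 9773455 to 14869150 per library, and 11806 genes were tested. The 18 macrophage markers summed to 2950 to 3430 CPM (counts scaled to a common library size of 1e+06) in the femur and 3180 to 3320 CPM in the tibia, and all 18 had counts. The animals differed: in mouse 7 the sum was 3240 to 3430 CPM in the femur and 3200 to 3280 CPM in the tibia, and in mouse 19 it was 2950 to 3020 CPM against 3180 to 3320 CPM. Of the 17 macrophage markers tested with edgeR, 2 rose and 2 fell in mouse 7 (4.37% and 5.36% of all genes) and 8 rose and 0 fell in mouse 19 (2.96% and 2.21%), and 6 differed between the mice (4.74%). Csf1r, the receptor of macrophage colony-stimulating factor, fell in mouse 7 (log2 -0.14, edgeR adjusted p = 0.00708) and rose in mouse 19 (0.21, 1.9e-04). Markers of other cells were present too. The 9 classical monocyte markers summed to 12700 to 13300 CPM in the femur and 11700 to 12600 CPM in the tibia. The 14 matched neutrophil and granulocyte precursor markers summed to 16900 to 29100 CPM in the femur and 17600 to 30700 CPM in the tibia. Of these 14, 7 rose and 3 fell (3.51% and 3.69% of all genes; 3 and 1 on sums per animal, where the shares were 0.407% and 0.144%). The 19 stromal and osteoblast markers summed to 55.4 to 64.8 CPM in the femur and 51.5 to 62.1 CPM in the tibia, most of it from Runx2 (34.0 and 31.0 CPM) and Acta2 (13.53 and 14.03 CPM). Among the others the marrow stromal chemokine gene Cxcl12 held 3.35 and 2.19 CPM, Col1a1 0.455 and 0.582 CPM and Pdgfra 0.126 and 0.0132 CPM. In bulk RNA, fewer cells of a type and less RNA per cell cannot be told apart.

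Fn1, F13a1 and Tgfbi were far more abundant than Vcan, Thbs1 and Tgm2. Scaled to the length of their annotated exons, Fn1 held 734 ± 41.2 CPM per kilobase in the femur (mean ± SD, n = 6 libraries), F13a1 500 ± 28.9, Tgfbi 466 ± 12.9, Vcan 83.8 ± 19.9, Thbs1 34.0 ± 17.3 and Tgm2 4.93 ± 2.06. Among 15162 genes with a length and a count, this placed Fn1 at rank 30, F13a1 at 55, Tgfbi at 66, Vcan at 511, Thbs1 at 1439 and Tgm2 at 6472. Fn1 alone took between 0.751 and 0.939% of a library's counts, rank 2 of all genes by CPM in both bones.

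The order changed between the bones at 1 place. In all 6 femur libraries F13a1 lay above Tgfbi per kilobase, and in all 6 tibia libraries it lay below, at 467 ± 35.7 against 627 ± 37.0. With the longest coding transcript as the length, F13a1 was above Tgfbi in 6 of 6 femur and 2 of 6 tibia libraries. Fn1 and Tgfbi were neighbours in the tibia, where Fn1 was higher in 4 of 6 libraries. Vcan, Thbs1 and Tgm2 kept their order in every library of both bones. The 2 crosslinking enzymes were far apart, and Tgm1, a transglutaminase best known from skin, had 4.08 CPM per kilobase in the femur, close to Tgm2.

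**Figure D1:**
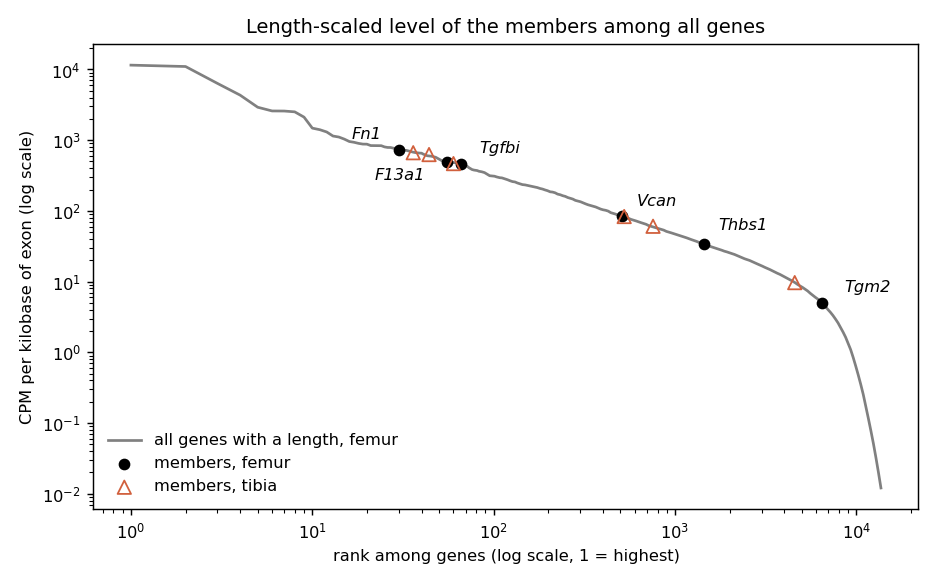
The length-scaled level of each member (vertical axis, CPM per kilobase of exon, log scale) against its rank among genes (horizontal axis, log scale), with filled points for the mean of 6 femur libraries, open triangles for the mean of 6 tibia libraries and the grey line for all genes in the femur. Fn1, F13a1 and Tgfbi sit together near the top of the curve, and Tgm2 moves from rank 6472 in the femur to 4567 in the tibia.

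The main comparison asked whether macrophages of the MSC-treated tibia differed from those of the untreated femur of the same animal. Thbs1, Tgfbi and Tgm2 rose and Fn1 and F13a1 fell, whereas Vcan did not pass over both mice and moved in opposite directions in them. With edgeR's quasi-likelihood test and the mouse as a term, 5 of 6 members thus passed at a Benjamini-Hochberg adjusted p under 0.05, where 7.2% of all genes tested passed. Of these 3 were higher, where 3.51% of all genes were higher, and 2 were lower, where 3.69% were lower. As the members were chosen with earlier results of these data known, these shares are no independent test of the group. On counts summed per animal, 2 of 6 passed (0.551% of all genes), both higher (0.407%), and 0 were lower (0.144%; 1 at an unadjusted p under 0.05 in edgeR, 2 over single libraries in DESeq2). Tgfbi and Thbs1 were those called, and Tgm2 had an adjusted p of 0.0732. At an unadjusted p, Fn1 had 0.0328 on sums and F13a1 0.0894.

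In each animal the tibia and femur libraries of all 6 genes were fully separated. In mouse 7 the tibia libraries of 3 members lay above every femur library (12.2% of all genes) and those of 3 below (14.4%). In mouse 19 these counts were 4 above (10.8%) and 2 below (10.3%). Thbs1, Tgfbi and Tgm2 were above in both mice (2.44% of all genes), and Fn1 and F13a1 were below in both (2.76%). By the edgeR test, mouse 7 alone gave 4 of 6 members (9.73% of all genes), 3 higher (4.37%) and 1 lower (5.36%). Mouse 19 alone gave all 6 (5.17% of all genes), 4 higher (2.96%) and 2 lower (2.21%). The change was more positive in mouse 19 for 3 members (2.89% of all genes) and more negative for 0 (1.85%; 1 at an unadjusted p under 0.05, and 0 with DESeq2's size factors). Between the 2 untreated femurs 5 of 6 members differed (28.4% of all genes), 1 higher in mouse 19 (14.1%) and 4 lower (14.3%).

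**Figure D2:**
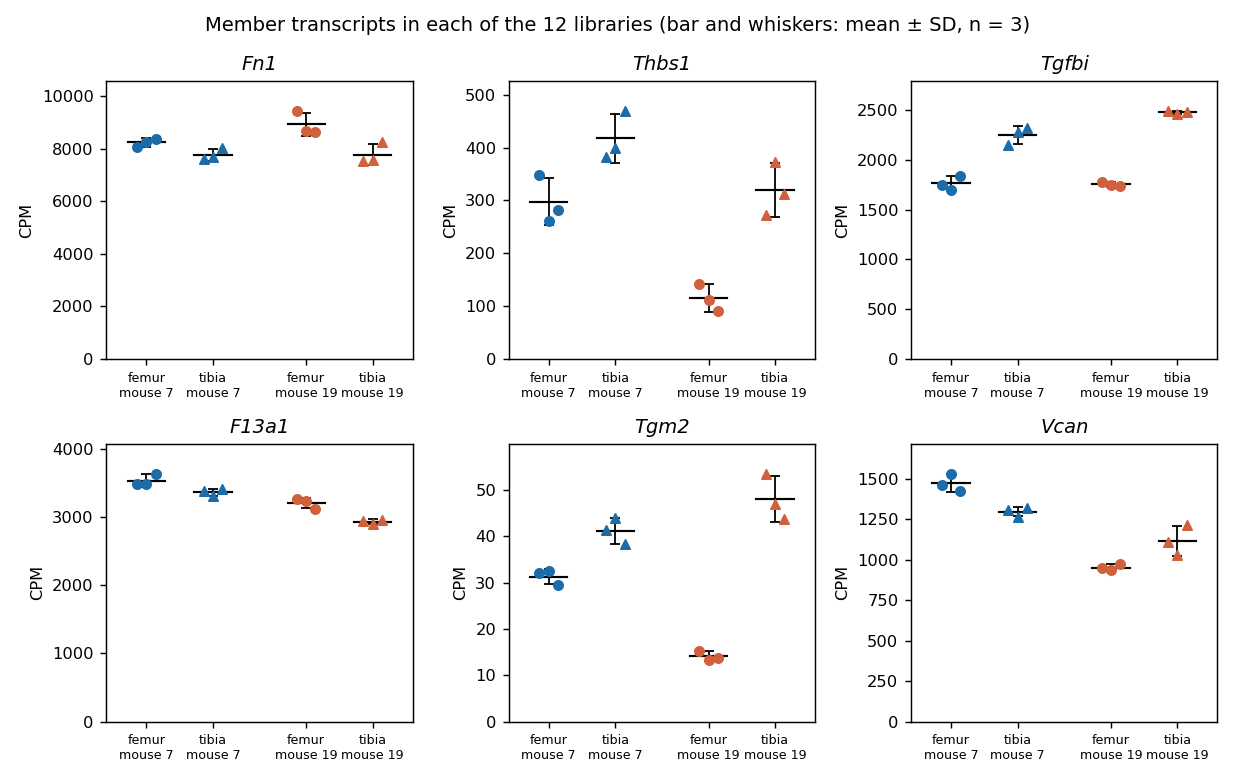
CPM of each member in each library (vertical axis, starting at 0), with circles for femur and triangles for tibia libraries, blue for mouse 7 and orange for mouse 19, and lines with whiskers for the mean ± SD of 3 libraries. Tgfbi has the same femur level in both mice, whereas Thbs1, Tgm2 and Vcan start lower in the femur of mouse 19 than in that of mouse 7.

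Tgfbi, a secreted protein that binds collagen and integrins and takes its name from its induction by TGF-beta, had the smallest adjusted p of the 6. The femur libraries of mouse 7 held 1749, 1696 and 1841 CPM and the tibia libraries 2143, 2282 and 2320 CPM. In mouse 19 the femur libraries held 1775, 1747 and 1733 CPM and the tibia libraries 2491, 2462 and 2482 CPM. The femurs of the 2 animals were alike and every tibia library stood above every femur library of either mouse. The log2 change was 0.43 with a standard error of 0.03 (95% interval 0.36 to 0.49, edgeR adjusted p = 9.5e-10, higher in 6 of 6 tibia libraries, and 0.00513 on sums per animal). Mouse 7 gave 0.35 ± 0.03 and mouse 19 gave 0.50 ± 0.03. A test of one animal against the other missed the threshold (adjusted p = 0.0817; 0.0384 without femur library 2 of mouse 7). Tgfbi lies on chromosome 13 from 56609523 to 56639562 on the plus strand (GRCm38, GENCODE M21).

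Thbs1, the gene of an antiangiogenic matricellular glycoprotein that binds Cd36 and Cd47, changed by more and varied by more. Its femur libraries in mouse 7 held 347.7, 261.9 and 282.8 CPM and the tibia libraries 382.5, 399.9 and 469.5 CPM. In mouse 19 the femur libraries held 142.7, 111.9 and 90.4 CPM and the tibia libraries 273.3, 373.4 and 311.8 CPM. The tibia was above the femur in each mouse, but the tibia of mouse 19 overlapped the femur of mouse 7. The log2 change was 0.96 ± 0.13 (SE; 95% interval 0.69 to 1.24, edgeR adjusted p = 5.8e-05, higher in 6 of 6 tibia libraries, 0.0213 on sums). Thbs1 lies on chromosome 2 from 118111876 to 118127133.

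The Thbs1 change differed between the animals. It was 0.49 ± 0.10 in mouse 7 (adjusted p = 0.00241) and 1.48 ± 0.11 in mouse 19 (6.5e-11), a difference of 0.99 ± 0.15 on the log2 scale that passed the test (8.2e-05). The untreated femurs themselves were unlike, with mouse 19 lower than mouse 7 by a log2 change of -1.38 ± 0.11 (6.0e-11). Platelets carry much thrombospondin. The 13 megakaryocyte and platelet markers summed to 9.75 to 17.3 CPM in the femur and 11.2 to 18.3 CPM in the tibia. The largest part was Itga2b (5.76 and 5.23 CPM). Of the 6 that were tested, Pf4 alone rose, from 0.596 ± 0.279 to 1.75 ± 0.65 CPM (edgeR adjusted p = 0.00244, 0.0721 on sums). Among those below the filter, Ppbp held 0.136 CPM in the femur and 0.441 CPM in the tibia, and Tubb1 0.422 and 0.274 CPM. The part of platelet RNA in the Thbs1 result was not tested.

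Fn1 had the highest level of the members and a small change. The mouse 7 femur libraries held 8066, 8247 and 8383 CPM and the tibia libraries 7599, 7690 and 8030 CPM. In mouse 19 the femur libraries held 9436, 8683 and 8634 CPM and the tibia libraries 7538, 7553 and 8233 CPM. Each tibia library was below every femur library of its own mouse, and the tibia means of the 2 animals were 7773 and 7775 CPM. Fn1 fell by 0.14 on the log2 scale (SE 0.03, 95% interval -0.20 to -0.08, edgeR adjusted p = 0.0046). It passed within mouse 19 (-0.20 ± 0.04, adjusted p = 3.9e-04) and not within mouse 7 (-0.08 ± 0.04, 0.147). The change in one animal against that in the other missed the threshold (0.239), except without tibia library 3 of mouse 19 (0.0294). On sums per animal the adjusted p was 0.429. The gene lies on chromosome 1 from 71585520 to 71653200 on the minus strand and has 9 annotated coding transcripts, which the counts per gene do not resolve.

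Vcan was the member whose direction depended on the animal. In mouse 7 the femur libraries held 1463, 1531 and 1422 CPM and the tibia libraries 1304, 1264 and 1317 CPM. In mouse 19 the femur libraries held 945.9, 933.8 and 972.3 CPM and the tibia libraries 1108, 1026 and 1211 CPM. The tibia was below the femur in the first animal and above it in the second, with no overlap in either. Vcan fell by 0.19 on the log2 scale in mouse 7 (95% interval -0.27 to -0.10, edgeR adjusted p = 0.00468) and rose by 0.23 in mouse 19 (0.14 to 0.32, 7.6e-04). The difference of 0.41 ± 0.06 passed (4.1e-05), among 4.74% of all genes that passed this test. Over both mice the change was 0.02 with an interval of -0.09 to 0.13 (adjusted p = 0.871).

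The femur of mouse 19 had less Vcan than the femur of mouse 7 (log2 -0.63 ± 0.04, adjusted p = 1.3e-12), and the tibias lay between the 2 femurs. The 9 non-classical monocyte markers, which include the angiotensin-converting enzyme gene Ace, were lower in the tibia of mouse 7 and overlapped between the bones in mouse 19. Their sum was 1770 to 1860 CPM in the femur and 1550 to 1570 CPM in the tibia of mouse 7, against 1330 to 1390 CPM and 1350 to 1400 CPM in mouse 19. In mouse 7, 6 of the 9 fell and 0 rose (5.36% and 4.37% of all genes). In mouse 19, 2 rose and 1 fell (2.96% and 2.21%). The difference between the mice passed for 6 of the 9 (4.74% of all genes). Among these was Ace, at -0.54 in mouse 7 and 0.42 in mouse 19 (edgeR adjusted p of the difference 8.0e-08). The part of these markers in the Vcan result was not tested. Vcan lies on chromosome 13 from 89655312 to 89742509 on the minus strand, with 8 annotated coding transcripts.

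F13a1, the transglutaminase that crosslinks fibrin and is stored in monocytes and platelets, was the abundant enzyme. In mouse 7 the femur libraries held 3484, 3479 and 3637 CPM and the tibia libraries 3380, 3304 and 3406 CPM. In mouse 19 the femur libraries held 3259, 3227 and 3123 CPM and the tibia libraries 2935, 2892 and 2962 CPM. The tibia was lower in both animals, by less than the gap between the animals in the tibia. F13a1 fell by 0.10 on the log2 scale (SE 0.02, 95% interval -0.15 to -0.05, edgeR adjusted p = 0.0115, 0.562 on sums per animal). Within the mice it passed in mouse 19 (-0.13 ± 0.03, 0.00834; 0.0533 without femur library 1 of mouse 19) and not in mouse 7 (-0.07 ± 0.03, 0.146), without a passing difference between them (0.592). F13a1 lies on chromosome 13 from 36867178 to 37050244 on the minus strand.

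The summed classical monocyte markers were also lower in every tibia library than in the femur libraries of its mouse, at 12700 to 13300 CPM in the femur and 11700 to 12100 CPM in the tibia of mouse 7, and 13200 to 13300 against 12000 to 12600 CPM in mouse 19. The chitinase-like gene Chi3l3 was the largest part of this sum, at 6432 ± 624 CPM in the femur and 5611 ± 447 CPM in the tibia. The next largest, Ccr2, was at 2094 and 2158 CPM. Of the 9, 3 fell, among them Chi3l3 and Ms4a4c, and 0 rose (3.69% and 3.51% of all genes). On sums per animal 0 fell and 0 rose. Ccr2 (log2 0.05, edgeR adjusted p = 0.446) and Ly6c2 (-0.04, 0.638), which define these cells, did not pass over both mice. Ccr2 had -0.065 in mouse 7 (0.275) and 0.169 in mouse 19 (0.00264). Ly6c2 had 0.066 in mouse 7 (0.355) and -0.14 in mouse 19 (0.0423). Both differences passed (0.00329 and 0.0341), as for 4 of the 9 markers (4.74% of all genes). The part of these cells in the Fn1 and F13a1 results was not tested.

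Tgm2, a transglutaminase found both inside cells and in the matrix, was the scarcest member. In mouse 7 the femur libraries held 32.0, 32.4 and 29.5 CPM and the tibia libraries 41.3, 43.9 and 38.3 CPM. In mouse 19 the femur libraries held 15.3, 13.3 and 13.8 CPM and the tibia libraries 53.5, 47.0 and 43.6 CPM. The femurs of the 2 animals differed by more than their tibias did, and all tibia libraries stood above all femur libraries. The change over both mice was 1.01 ± 0.15 (log2; 95% interval 0.70 to 1.33, edgeR adjusted p = 1.7e-04, higher in 6 of 6 tibia libraries). On sums per animal it was 1.05 ± 0.22 and missed the threshold.

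The size of the Tgm2 change depended on the animal. It was 0.40 ± 0.08 in mouse 7 (adjusted p = 0.00233) and 1.77 ± 0.09 in mouse 19 (1.1e-14), or 1.32-fold and 3.41-fold. The difference of 1.38 ± 0.13 passed (1.4e-08), and the femurs differed by -1.15 ± 0.10 (mouse 19 minus mouse 7, 1.3e-10). Of the 17 macrophage markers 6 also changed differently in the mice, and their part in the Tgm2 and Thbs1 results was not tested. Tgm2 lies on chromosome 2 from 158116402 to 158146436 on the minus strand.

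**Figure D3:**
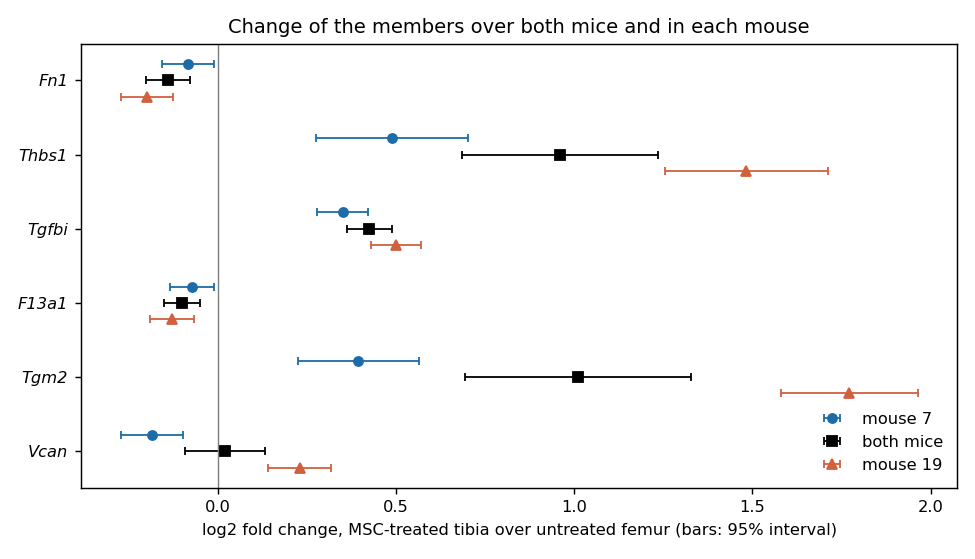
Log2 fold change of each member, tibia over femur (horizontal axis), with 95% intervals, for mouse 7 (blue circles), both mice (black squares) and mouse 19 (orange triangles). Thbs1 and Tgm2 change by more in mouse 19 than in mouse 7, Vcan lies on opposite sides of 0 in the 2 animals, and Fn1 and F13a1 lie slightly below 0.

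Promoter sequence was matched in RefSeq (GRCm38.p6) for 3 of the 6 genes, Tgfbi, F13a1 and Vcan. The stretches upstream of Tgfbi, which rose in both mice, and of F13a1, which did not, are shown to compare a pair of abundant transcripts of the same cells. They run 5′ to 3′ on the gene's strand and end before the first transcript start in either annotation, and capitals mark the motifs found. The Tgfbi stretch is chr13:56609336-56609522 on the plus strand (187 bases) and the F13a1 stretch is chr13:37050245-37050494 on the minus strand (250 bases).
Tgfbi: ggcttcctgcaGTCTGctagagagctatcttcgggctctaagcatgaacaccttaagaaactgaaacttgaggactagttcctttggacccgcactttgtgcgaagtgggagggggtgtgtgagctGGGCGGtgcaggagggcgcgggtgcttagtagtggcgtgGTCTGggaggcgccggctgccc
F13a1: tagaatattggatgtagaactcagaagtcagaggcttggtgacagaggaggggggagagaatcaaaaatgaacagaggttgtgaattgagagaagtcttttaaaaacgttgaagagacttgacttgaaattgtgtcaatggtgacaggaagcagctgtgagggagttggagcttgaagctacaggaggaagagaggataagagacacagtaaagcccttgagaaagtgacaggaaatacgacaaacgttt
Both strands were searched for the SMAD-binding CAGAC, the GC box GGGCGG, the AP-1 site TGANTCA and the TATA box TATAAA. Tgfbi held 2 CAGAC matches, both as the reverse complement, and 1 GC box. Of all 32851 promoter windows cut to the same 187 bases, 34.2% held CAGAC, 22.2% the GC box, 5.14% the AP-1 site and 8.62% the TATA box. F13a1 held 0 matches of any of the 4, which occur in 42.2%, 32.7%, 6.75% and 12.4% of windows of 250 bases. These matches describe the letters in these windows only.

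Among other matrix genes, the osteopontin gene Spp1 had the largest change of those called. For this list and those that follow, the shares over all genes were 3.51% higher and 3.69% lower, and 0.407% and 0.144% on sums per animal. Of 57 matrix glycoprotein genes besides the members, 16 were tested, and 4 rose and 0 fell in the same edgeR test (median log2 change 0.03, against -0.0021 over all genes). Spp1 rose from 12.5 ± 1.73 to 82.1 ± 15.0 CPM (edgeR adjusted p = 2.05e-19). Ecm1, an extracellular matrix glycoprotein, went from 31.9 ± 10.5 up to 56.1 ± 4.06 CPM, a log2 change of 0.85 ± 0.11 (edgeR adjusted p = 2.7e-05; per-animal sums, 0.0378). Emilin1, an elastic-fibre glycoprotein, rose by 0.19 ± 0.04 (0.00924, 0.242 on sums). Ltbp3, which binds latent TGF-beta, rose by 0.59 ± 0.17 (0.0398, 0.336 on sums), a call lost without any 1 of 10 libraries, that is, all but tibia 3 and femur 2 of mouse 19 (adjusted p up to 0.122). Emilin2, the most abundant of the list, stood at 1064 ± 59.5 CPM in the femur and 1026 ± 32.8 CPM in the tibia (adjusted p = 0.267).

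Proteoglycans and the enzymes that build their sugar chains moved little over both mice. The Adamts protease genes of this list were below the filter or without counts, so they were not tested. Of 14 tested, 1 rose and 0 fell (median 0.03), the granule proteoglycan gene Srgn at 0.25 ± 0.06 (edgeR adjusted p = 0.0145, 0.378 on sums), which rose in mouse 19 (0.51, 6.8e-10) and not in mouse 7 (-0.01, 0.957). The hyaluronan synthase gene Has3 was at 0.614 and 0.459 CPM in femur and tibia, and the versican partner gene Tnfaip6 at 1.31 and 1.06 CPM. Collagens were almost absent from these libraries. Of 20, 6 were tested and 0 rose or fell, and the highest, Col5a1, held 4.56 ± 2.28 CPM in the femur and 4.25 ± 0.94 CPM in the tibia. The smallest edgeR adjusted p of the 6 was 0.0548, for Col15a1. At an unadjusted p under 0.05, 1 was higher, and DESeq2 called 0, giving no adjusted p for 3.

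Among crosslinking and matrix-folding enzymes other than the members, 11 of 24 were tested, 1 rose and 1 fell (median -0.03). P4hb, the disulphide isomerase that is also a subunit of collagen prolyl hydroxylase, went from 844 ± 83.0 up to 974 ± 44.4 CPM, a log2 change of 0.21 ± 0.03 (edgeR adjusted p = 9.5e-05; per-animal sums, 0.164). P4ha1, its catalytic partner, fell by 0.17 (SE 0.05, adjusted p = 0.0437, 0.434 on sums). The P4ha1 call was lost without any 1 of the 6 libraries of mouse 7, or without tibia 2 or femur 2 of mouse 19 (adjusted p up to 0.123). Of the other transglutaminases Tgm1 (12.9 and 14.1 CPM in femur and tibia, adjusted p = 0.515) and Tgm4 (6.72 and 7.02 CPM, 0.834) did not pass, and Tgm5 and Tgm7 had no counts. F13b, the carrier subunit of plasma factor XIII, had 2 counts over the 12 libraries. The lysyl oxidase gene Lox was below the filter, with 54 counts in all.

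**Figure D4:**
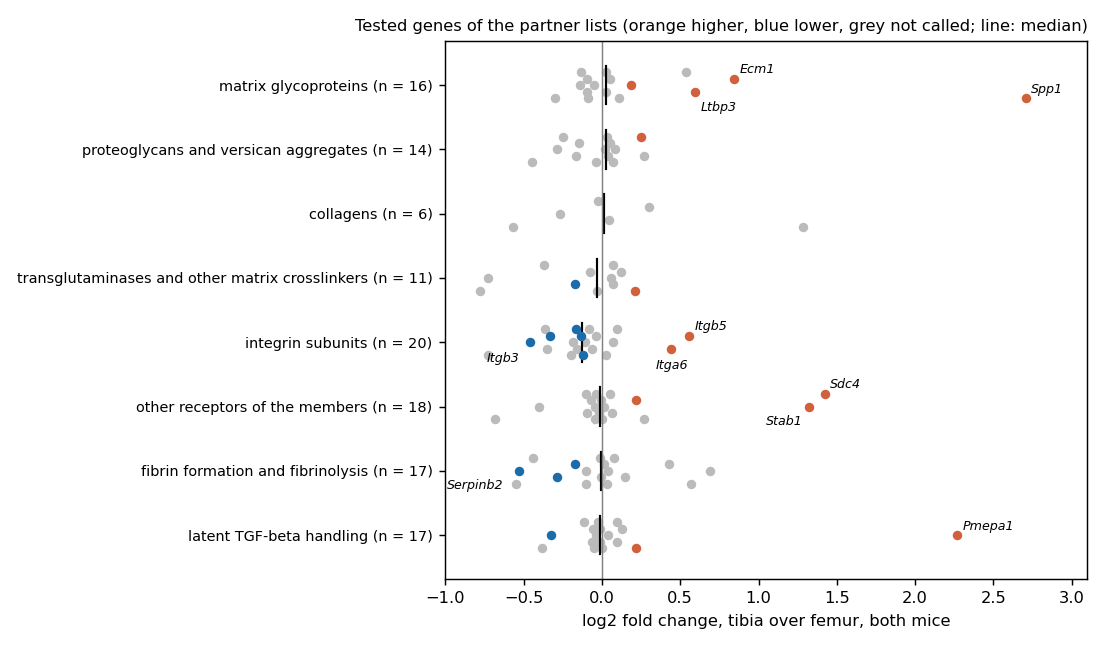
Log2 fold change, tibia over femur over both mice (horizontal axis), of every tested gene in 8 lists of matrix partners, with orange for genes called higher, blue for lower, grey for neither and a black line for each list's median. Most genes lie near 0, and Spp1, Pmepa1, Sdc4 and Stab1 lie farthest to the right among those called.

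Integrins, the receptors through which cells hold fibronectin and other matrix proteins, moved both ways. Of 20 tested subunits 2 rose and 5 fell (median -0.13). Itgb5, which pairs with alpha v, went from 79.4 ± 17.4 up to 115 ± 3.36 CPM, a log2 change of 0.56 ± 0.07 (edgeR adjusted p = 1.3e-05; per-animal sums, 0.0387), and the laminin receptor subunit gene Itga6 rose by 0.44 ± 0.07 (3.4e-04, 0.0732 on sums). Itgb3, the other main partner of alpha v, fell from 49.5 ± 12.8 to 36.2 ± 10.4 CPM (-0.46 ± 0.05, 3.5e-06, 0.0141 on sums), and Itgax fell by 0.33 (SE 0.04, 2.9e-05, 0.0455 on sums). The leukocyte subunit genes Itga4 (-0.17, 0.0105), Itgb7 (-0.13, 0.00493) and Itgal (-0.12, 0.046) fell by less, and on sums their adjusted p-values were 0.292, 0.429 and 0.565. Itgal lost its call without any 1 of the 6 libraries of mouse 7 or tibia library 2 of mouse 19 (adjusted p up to 0.136). It fell in mouse 7 (-0.24, 2.3e-05) and not in mouse 19 (0.002, 0.987), a difference that passed (0.00219). The classical fibronectin receptor genes Itga5 (0.10, 0.103) and Itgb1 (-0.06, 0.351) and the alpha v gene Itgav (-0.04, 0.784) did not pass over both mice. Nor did the most abundant subunit gene, Itgam (1562 and 1587 CPM, 0.718). Itgb1 fell in mouse 7 (-0.16, 0.00867) and not in mouse 19 (0.04, 0.714). Itgam rose in mouse 19 (0.11, 0.0454) and not in mouse 7 (-0.06, 0.267). Both differences passed (0.0385 and 0.0253).

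Of 18 other receptors of these proteins 3 rose and 0 fell (median -0.02). Stab1, a scavenger receptor that takes up matrix fragments, rose by 1.33 ± 0.12 (edgeR adjusted p = 5.2e-08, 0.00309 on sums). Sdc4, a heparan sulphate proteoglycan that binds fibronectin, rose from 2.42 ± 1.32 to 6.44 ± 1.55 CPM (6.6e-04, 0.107 on sums). By edgeR, Sdc4 passed in mouse 19 (2.56, adjusted p = 2.5e-08) and not in mouse 7 (0.61, 0.0733), a difference that passed (4.9e-04). The chaperone gene Calr, whose protein at the cell surface binds thrombospondin, rose by 0.22 ± 0.03 (1.5e-04, 0.117 on sums). The thrombospondin receptor genes Cd47 (207 CPM in both bones, adjusted p = 0.995) and Cd36 (13.6 and 11.4 CPM, 0.776), the hyaluronan receptor gene Cd44 (548 and 521 CPM, 0.12) and the endocytic receptor gene Lrp1 (1377 and 1335 CPM, 0.651) did not pass over both mice. For Cd36 this averaged -0.56 in mouse 7 (0.00272) and 0.70 in mouse 19 (0.00774), a difference that passed (1.4e-04).

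On the fibrin side, where factor XIII acts, 3 of 17 tested genes fell and 0 rose (median -0.01). Thbd, the thrombin receptor thrombomodulin, went from 62.7 ± 6.99 down to 51.6 ± 9.25 CPM, a log2 change of -0.29 ± 0.05 (edgeR adjusted p = 5.1e-04; per-animal sums, 0.112). Serpinb2, an inhibitor of plasminogen activators, fell by 0.53 (0.00871, 0.114 on sums), and the clotting cofactor gene F5 fell by 0.17 (0.0112, 0.302 on sums). Anxa2, the most abundant of the list, was at 1067 and 1094 CPM (0.517). The urokinase genes Plau (28.1 and 29.7 CPM, 0.529) and Plaur (130 and 128 CPM, 0.875) did not pass.

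Latent TGF-beta is a target of thrombospondin, and TGF-beta induces Tgfbi, so its handling genes were counted too. Of 17 tested 2 rose and 1 fell (median -0.01). The receptor gene Tgfbr1 rose by 0.21 ± 0.04 (edgeR adjusted p = 0.00204, 0.186 on sums), and Pmepa1, a feedback target of TGF-beta signalling, rose from 0.186 ± 0.196 to 0.977 ± 0.564 CPM (0.0165, 0.0732 on sums) on 93 counts over the 12 libraries. DESeq2 gave no adjusted p for Pmepa1. By edgeR it passed in mouse 19 (3.04, adjusted p = 0.0418) and not in mouse 7 (1.78, 0.13), without a passing difference between them (0.726). Acvrl1, another receptor of this family, fell by 0.33 (0.00237, 0.101 on sums). Lrrc33, the most abundant of the list, which anchors latent TGF-beta on myeloid cells, was at 403 and 385 CPM (0.332), and Smad7, a common target, was at 15.6 and 16.6 CPM (0.53).

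Each member was also matched to the 3 genes whose log2 CPM followed it most closely over the 12 libraries, by Pearson's r among 8507 genes with a mean of at least 10 CPM. The libraries share 2 animals and 2 bones, so these values are descriptions. Tgfbi was followed by Spp1 (r = 0.98), Saa3 (0.98) and Dab2 (0.97), and Tgm2 by Ecm1 (0.97), Itgb5 (0.97) and Marcks (0.97). Thbs1 was followed by Tubb6 (0.95), Stab1 (0.94) and Ms4a6d (0.94). The nearest to Fn1 were Plxnd1 (0.93), Exoc4 (0.92) and Hk2 (0.92), to F13a1 Camsap2 (0.97), Thbd (0.97) and Cebpa (0.96), and to Vcan Filip1l (0.98), Ace (0.97) and Bbx (0.97). Ecm1, Itgb5, Stab1, Thbd and Spp1 appeared both here and among the called genes of the lists above. Both results use the same 12 libraries, and genes that follow a member differing between the bones tend to differ themselves. The overlap is therefore no separate evidence.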

How the data were processed

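mRNA-seq libraries of sorted marrow macrophages were analysed from 1 table of raw read counts per gene and library, deposited by the authors in whole numbers with no scaling. The submitters' processing notes list bcl2fastq, HISAT2, Subread, featureCounts and DESeq2, with mm10 as the build. Versions, settings, annotation and strand handling were not given in the sources used here, so reads of overlapping or antisense genes cannot be told apart. All 12 columns were matched by title, and 0 were left unmapped. Date-like names stood in 27 rows, which are not named here. Among counts of 1 to 10, 69.8% were even, as when both ends of a pair are counted, so a fit on halved counts was an alternative.

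Counts were tested in R 4.3.3 with edgeR 4.0.16 (filterByExpr grouped by animal and bone, minimum count 10, TMM, glmQLFit, glmQLFTest, two-sided, Benjamini-Hochberg adjustment over 11806 genes). The mouse was a term in the main fit, and within-mouse changes, their difference and the femur comparison came from a second model with a mean for each animal's tibia and femur. Standard errors are the absolute log2 change over the square root of F. The functions were tested on simulated data. CPM use TMM-scaled library sizes, and levels per kilobase use the union of GENCODE M21 exons. Alternatives were DESeq2 1.42.0, other scalings and filters, sums per animal, halved counts, a library-number block, no mouse term and leaving out each library.

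The members and the 8 partner and 13 marker lists (377 entries, 376 matched, 3 of them by another symbol) were chosen with earlier results of these data known. The text names the members, called list genes up to 4 per direction, each list's most abundant gene and the 3 genes most like each member; other named genes were chosen after their values were seen.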

Additional observations from a re-analysis of the deposited data

Results flagged for a closer look

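The tibia-over-femur change differed between the animals for 3 of the 6 members, by edgeR's test of the difference itself with adjustment over all genes. For Tgm2 the change in mouse 19 minus that in mouse 7 was 1.38 on the log2 scale (adjusted p = 1.4e-08), for Thbs1 0.99 (8.2e-05) and for Vcan 0.41 (4.1e-05). In all 3 the femur of mouse 19 was lower than that of mouse 7, at 14.2, 115 and 951 CPM against 31.3, 297.5 and 1472 CPM. The tibia means were 48.0 and 41.2 CPM for Tgm2, 319.5 and 417 CPM for Thbs1 and 1115 and 1295 CPM for Vcan, in mouse 19 and mouse 7. Between the femurs of mouse 7 and mouse 19 marker sums differed as well, at 3240 to 3430 against 2950 to 3020 CPM for macrophage, 16900 to 18500 against 25300 to 29100 CPM for neutrophil and precursor, and 167 to 183 against 402 to 480 CPM for eosinophil, basophil and mast cell markers, and their part was not tested. With 1 animal behind each value, the animal, its treatment and its sort cannot be told apart.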

How the results depend on the processing

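The directions and calls of the 6 members over both mice were kept with DESeq2's size factors or its Wald test, library totals, no filter, a filter of 5 CPM in 3 libraries, halved counts and the replicate block. Same-numbered libraries did not deviate together (r from -0.047 to 0.001 over 6 pairs, 0 correlating best with their own number), and the block gave 239 genes higher and 256 lower against 414 and 436. With it 5 partner genes lost their edgeR calls, Srgn (adjusted p = 0.0612), Pmepa1 (0.0562), Ltbp3 (0.0651), P4ha1 (0.0945) and Itgal (0.117). On counts summed per mouse and bone 48 genes were higher and 17 lower, and 0 members were lower: the calls of Fn1 (-0.138), F13a1 (-0.099) and Tgm2 (1.05) were lost. Without a mouse term 50 genes were higher and 24 lower, 1 member was higher and 0 lower, with Fn1 at -0.141, Thbs1 0.84, F13a1 -0.098, Tgm2 0.96 and Vcan -0.008. With the replicate block the femur difference of Tgfbi, which was not called, was 0.044 in place of -0.01.

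Leaving out each library gave 284 to 498 genes higher and 279 to 490 lower (279 without tibia library 3 of mouse 7, 283 without tibia library 2 of mouse 19), and 3 members higher and 2 lower throughout. Vcan over both mice ranged from -0.024 to 0.056, with -0.024 without tibia library 3, -0.001 without femur library 1 and -0.009 without femur library 2 of mouse 19. The Tgfbi femur difference ranged from -0.036 to 0.023. Within mouse 19, 1 to 2 members were lower; 3 to 4 members differed upward between the mice and 0 to 1 downward; and 0 to 1 were higher in the femur of mouse 19, with Fn1 lost without femur library 1 of mouse 19 (0.125) or of mouse 7 (0.0716). On sums the list calls were 2 higher matrix glycoproteins, 0 proteoglycans, 0 higher and 0 lower crosslinkers, 1 higher and 2 lower integrins, 1 higher receptor, 0 lower fibrin genes and 0 higher and 0 lower TGF-beta genes. By longest coding transcript the femur levels of Fn1, Tgfbi and F13a1 were 1031, 647 and 852 CPM per kilobase, an alternative chosen after seeing the data. The cause of these changes was not tested. With 2 animals, precision is limited by the number of animals, and the part of depth was not tested.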

Other observations

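Several partner genes changed differently in the 2 animals, as Thbs1, Tgm2 and Vcan did. The edgeR test of the difference passed for 2 of 16 matrix glycoproteins, 2 of 14 proteoglycan genes, 0 of 6 collagens, 1 of 11 crosslinkers, 5 of 20 integrins, 5 of 18 other receptors, 0 of 17 fibrin genes and 1 of 17 TGF-beta genes, against 4.74% of all genes. At an unadjusted p under 0.05 it was 1 for the collagens and 1 for the fibrin genes; DESeq2 was not run for this difference. Ecm1 rose by 0.43 in mouse 7 and 1.34 in mouse 19 (adjusted p of the difference 8.8e-06), Itgb5 by 0.28 and 0.85 (8.7e-06) and Stab1 by 0.91 and 1.92 (8.6e-06). Sdc3, a syndecan, fell by 0.34 in mouse 7 and rose by 0.28 in mouse 19 (1.1e-05). Itga1, a collagen receptor subunit, had 0.11 in mouse 7 (0.273) and fell by 0.41 in mouse 19 (7.8e-06), and the difference passed (9.4e-05).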
